A study of Mus musculus with 8 samples.

Results

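Apoe, its receptors, and the proteins that move cholesterol out of endosomes and cells were followed in mouse embryonic stem cells without the rRNA methyltransferase METTL5. The set held 9 genes, found by exact symbol in all 8 deposited tables out of 23845 symbols: Apoe, Vldlr, Lrp1, Lrp8, Scarb1, Abca1, Abcg1, Npc1 and Npc2. They were chosen by name and role with their CPM in KO and WT libraries known, footprints first and then RNA-seq, so every KO against WT value of these 9 genes is given below as a description, without a test. The groups were METTL5 knockout (KO) and wild-type (WT) cells, at passages 5 to 10, with 2 footprint (Ribo-seq) and 2 RNA-seq libraries per genotype. No label read here describes the edited allele or says how many KO clones were used. The series calls the replicates biological without naming their source, so every p-value reflects only how far these libraries spread, which may be technical. METTL5 places N6-methyladenosine on 18S ribosomal RNA, and the study set footprints beside mRNA levels in cells with and without it.

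ApoE is a secreted apolipoprotein that coats lipoprotein particles and is the ligand through which cells take those particles up. The VLDL receptor, LRP8 (also called ApoER2) and LRP1 are related endocytic receptors for lipoproteins, and SR-B1, the product of Scarb1, exchanges cholesterol with high density lipoprotein at the cell surface. Once a particle has been digested in the lysosome, NPC2 hands its free cholesterol to NPC1 in the membrane. ABCA1 and ABCG1 then pass cholesterol from the cell to apolipoprotein A1, ApoE and high density lipoprotein, and both genes, like Apoe, are known targets of the oxysterol-sensing LXR receptors.

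Promoter sequences are shown for 3 of the genes whose KO footprints were all above the WT footprints, one for each role: the ligand Apoe, the receptor gene Lrp1 and the efflux gene Abca1. Each runs over the 250 bases before the start site, 5′ to 3′ on the minus strand of GRCm38.p6, as given by RefSeq: chr7:19699189-19699438 for Apoe, chr10:127621149-127621398 for Lrp1 and chr4:53159896-53160145 for Abca1. Capitals mark matches on either strand to any of 5 motifs, namely the E-box CACGTG, the GC box GGGCGG, the TATA box TATAAA, the sterol regulatory element TCACNCCAC and a DR4-type LXR element (GGTTA and GGTCA with 5 bases between them).
Apoe: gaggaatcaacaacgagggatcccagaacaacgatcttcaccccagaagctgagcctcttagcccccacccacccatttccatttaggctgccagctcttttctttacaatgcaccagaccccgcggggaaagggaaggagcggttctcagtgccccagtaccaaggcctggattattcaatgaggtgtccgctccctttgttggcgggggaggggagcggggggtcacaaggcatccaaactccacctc
Lrp1: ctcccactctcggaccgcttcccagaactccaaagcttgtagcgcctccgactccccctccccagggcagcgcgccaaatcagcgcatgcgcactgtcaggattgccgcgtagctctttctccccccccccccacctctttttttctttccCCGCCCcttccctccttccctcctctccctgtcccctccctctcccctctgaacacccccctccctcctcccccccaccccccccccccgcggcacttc
Abca1: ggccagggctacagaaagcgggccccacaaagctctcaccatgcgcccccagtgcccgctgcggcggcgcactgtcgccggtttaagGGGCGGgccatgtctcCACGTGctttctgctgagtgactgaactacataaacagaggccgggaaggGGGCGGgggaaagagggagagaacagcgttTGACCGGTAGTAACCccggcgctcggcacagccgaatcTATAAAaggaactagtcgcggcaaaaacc

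In Abca1 the capitals nearest the start are a TATA box at -29 to -24, and before it, at -67 to -53, lies a DR4-type match read on the opposite strand, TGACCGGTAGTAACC. This promoter also held the E-box CACGTG at -147 to -142 and 2 GC boxes. The DR4-type letters were found in 0.0487% of 32851 RefSeq promoter windows of 300 bases, the E-box in 7.15%, the TATA box in 13.6% and the GC box in 35.7%. None of the 11 windows of these genes held TCACNCCAC, which 1.24% of all windows did. The Lrp1 window held 1 GC box, and the window printed for Apoe held none of the 5 motifs. Of the 9 genes, 6 had a promoter window in the RefSeq table. The motifs and the windows printed were chosen with the sequences in view, and a match is a description only.

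Footprint libraries held 9322662 and 11487964 counts in KO and 10466185 and 8401463 in WT, against 152195 to 219567 counts in the RNA-seq libraries. Counts are RSEM expected counts, and CPM are those counts scaled by the library total. Footprint libraries of the same replicate number were deposited under names that share a tag across the genotypes, and no label says what the tag marks. Fits with the replicate number as a block are therefore given beside the calls they change. Such a fit of 4 libraries leaves 1 residual degree of freedom. In footprints, 3 counts were worth 0.261 to 0.357 CPM, and in RNA-seq 13.7 to 19.7 CPM, which covers counting error only. Mettl5, the targeted gene, stood at 4.08 and 4.79 CPM in KO footprints, against 41.2 and 45.9 CPM in WT footprints. In RNA-seq it had 39 and 55 counts in KO and 84 and 132 counts in WT. The pluripotency markers fixed for the label check, 10 genes such as Pou5f1, Sox2 and Nanog, were all detected in every footprint library and summed to 7401 and 7210 CPM in KO and 5769 and 7486 CPM in WT. Within these sums Dppa5a had means of 3146 CPM in KO and 2369 CPM in WT. Single markers differed both ways, with means of 117 and 69.7 CPM for Tfcp2l1 and 723 and 1090 CPM for Zfp42.

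Apoe, on chr7:19696109-19699188 (GRCm38, GENCODE M21, minus strand), had the largest fitted fold change of the 9 genes in footprints, next to that of Vldlr with its much wider error. It had 11825 and 13171 footprint counts in KO, or 1268 and 1147 CPM, against 4259 and 3996 counts in WT, or 407 and 476 CPM. Both KO libraries were far above both WT libraries, and libraries of the same genotype differed little. The means were 1207 ± 86.2 CPM in KO and 441 ± 48.6 CPM in WT (SD, n = 2 each), a ratio of 2.74. The fitted log2 fold change was 1.46 (SE 0.16), above that of 97.9% of the 12315 genes fitted. In bulk cultures, more cells that make ApoE and more footprints per cell cannot be told apart.

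**Figure D1:**
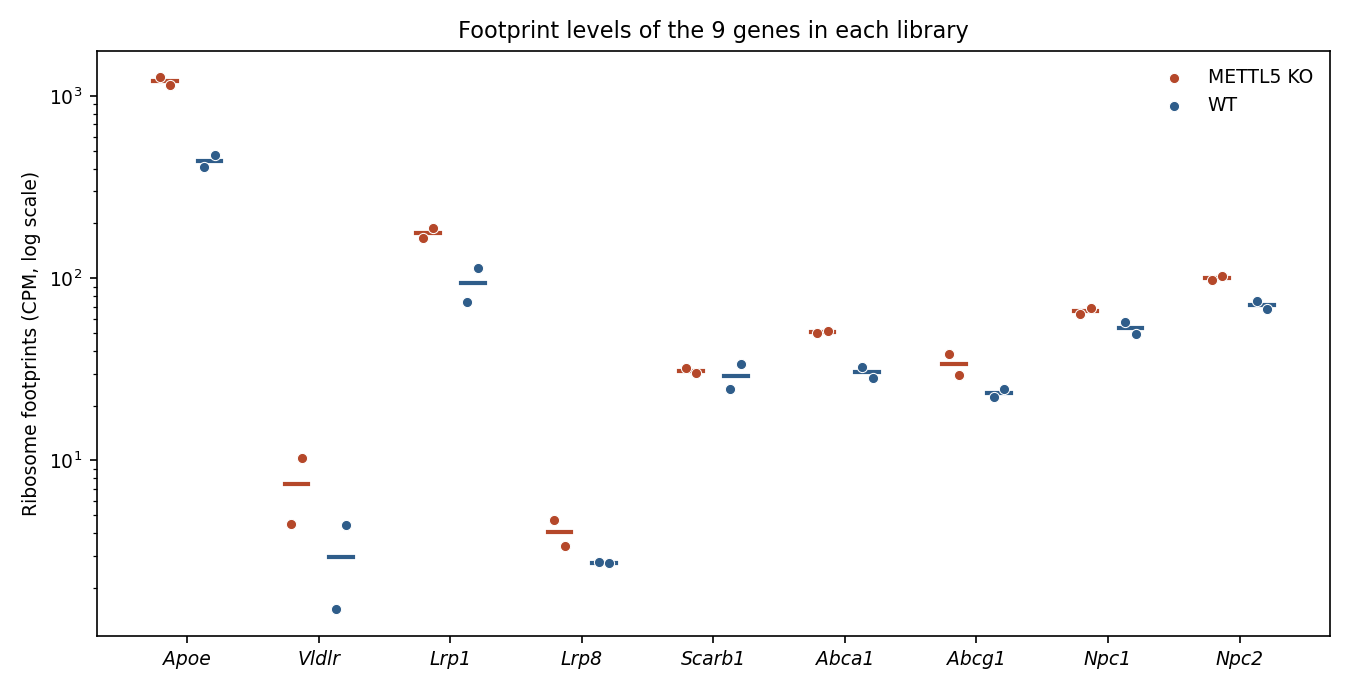
Footprint CPM (log scale) of the 9 genes in each library; points are the 2 METTL5 KO (left of each pair) and 2 WT libraries, and bars are group means. KO points lie above WT points for 8 genes and overlap them for Scarb1; Apoe has 1147 to 1268 CPM in KO and 407 to 476 CPM in WT.

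Among the receptors, the large scavenging receptor gene Lrp1 (chr10:127538161-127621148, minus strand) had more footprints in KO. It stood at 167 and 188 CPM in KO and at 73.8 and 114 CPM in WT, so the KO libraries were both above the WT libraries, which themselves differed by 0.62 on the log2 scale. The group means were 177 ± 14.8 CPM in KO and 93.7 ± 28.2 CPM in WT (SD, n = 2 each), with a fitted log2 fold change of 0.94 (SE 0.21).

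Vldlr, which binds ApoE-rich particles and also the guidance protein reelin, lies on chr19:27216484-27254231 (plus strand) and gave few counts. It had 42 and 118 counts in KO, or 4.51 and 10.3 CPM, and 16 and 37 counts in WT, or 1.53 and 4.4 CPM. The lower KO library lay just above the higher WT library, and on the TPM scale those libraries overlapped, at 0.85 TPM in KO and 0.86 TPM in WT. Replicate 2 was 1.11 log2 units above replicate 1 in KO and 1.27 in WT, the same way in both genotypes. Between libraries of the same number, KO was above WT by 1.30 for replicate 1 and 1.14 for replicate 2 on the log2(CPM + 0.5) scale. The fitted log2 fold change was 1.40 (SE 0.56), and 1.37 with the replicate block. Single libraries moved it, to 0.60 with KO replicate 2 left out, 1.88 with KO replicate 1 left out, 2.3 with WT replicate 2 left out and 0.80 with WT replicate 1 left out.

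Lrp8, the other reelin and ApoE receptor (chr4:107802261-107876840, plus strand), gave as few, with 44 and 39 counts in KO against 29 and 23 in WT. In CPM these were 4.72 and 3.40 in KO and 2.77 and 2.74 in WT. Both KO libraries were higher, but the KO libraries lay further from each other than the lower of them lay from WT. The fitted log2 fold change was 0.56 (SE 0.32). Scarb1 (chr5:125277087-125341094, minus strand) overlapped between the genotypes. It had 32.3 and 30.0 CPM in KO and 24.7 and 33.7 CPM in WT, and the KO values lay between the WT values. Its fitted log2 fold change was 0.11 (SE 0.20), and without WT replicate 1 it was -0.10.

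The efflux transporters were both higher in KO footprints. Abca1, which loads cholesterol and phospholipid onto lipid-poor apolipoproteins, lies on chr4:53030787-53159895 (minus strand) and stood at 49.9 and 51.4 CPM in KO and 32.8 and 28.3 CPM in WT. Libraries within a genotype were close together and the genotypes did not overlap (log2 fold change 0.74, SE 0.18). Abcg1, which delivers cholesterol to mature high density lipoprotein, lies on chr17:31057675-31117988 (plus strand) and had 38.5 and 29.6 CPM in KO and 22.3 and 24.6 CPM in WT. Its KO libraries were further apart than its WT libraries, and the log2 fold change was 0.55 (SE 0.19).

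The lysosomal pair differed less between genotypes. Npc2, the soluble cholesterol carrier, lies on chr12:84754562-84773152 (minus strand) and had 98.1 and 104 CPM in KO and 75.2 and 68.2 CPM in WT, with a log2 fold change of 0.51 (SE 0.16). Npc1, the membrane transporter, had 63.6 and 68.8 CPM in KO and 57.6 and 49.3 CPM in WT, with a log2 fold change of 0.32 (SE 0.17). In neither gene did a KO library reach down into the WT range, though the libraries of Npc1 came close. Npc1, on chr18:12189692-12236400 (minus strand), shares 511 bases of exon with the opposite-strand gene Rmc1, called 3110002H16Rik in the tables, and whether counting used strand is not stated, so the value of Npc1 is uncertain. That neighbour had 22.3 and 19.7 CPM in KO footprints and 18.9 and 25.5 CPM in WT footprints. No other gene of the 9 shares exon bases with an annotated gene of GENCODE M21.

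All 9 genes had passed the filter on low counts in footprints, and 8 had KO libraries wholly above their WT libraries, where 24.3% of all fitted genes did. Their median log2 fold change was 0.56, beside 0.01 for all 12315 genes. The quasi-likelihood fit of edgeR called 1 of the 9, Apoe, where 2.44% of all genes were called (1.83% higher and 0.617% lower in KO). With the replicate block it called 7 of the 9, all but Lrp8 and Scarb1, where 24% of all genes were called. Because these genes were chosen with this contrast known, nothing is read from these counts.

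**Figure D2:**
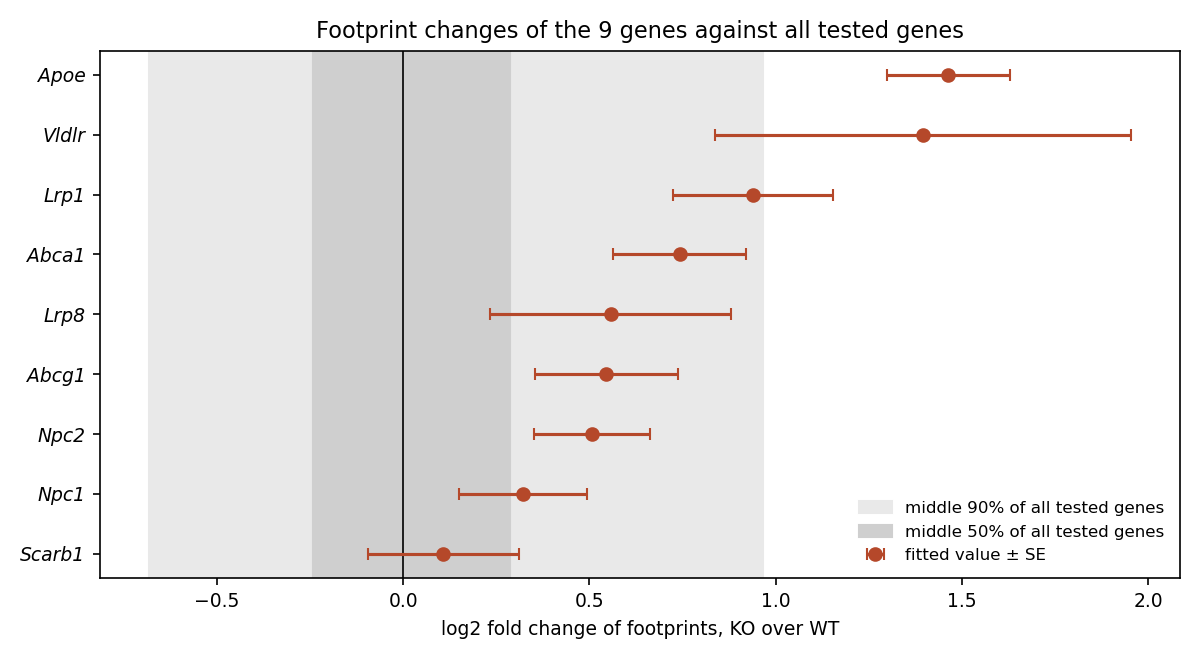
Fitted log2 fold change of footprints (KO over WT, x axis) of the 9 genes, points with SE bars, over grey bands for the middle 50% (-0.24 to 0.29) and middle 90% (-0.68 to 0.97) of the 12315 fitted genes. Apoe and Vldlr lie beyond the wider band, Vldlr with a wide error; Scarb1 lies inside the narrower one.

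Set against each other per length of transcript, the 9 genes kept nearly one order in both genotypes. That length is of the whole transcript, from 1251 bases for Apoe to 14891 for Lrp1, while footprints fall mainly on coding sequence. Coding length was not used, so the order across genes is uncertain. On the deposited TPM scale, Apoe footprints were at 1591 and 1488 in KO and at 516 and 617 in WT, above those of 99.0% of the 17348 genes with any footprint count. Npc2 came next with a mean of 48.8 TPM in KO and 34.9 TPM in WT. Scarb1 (21.5 TPM in KO, 20.0 TPM in WT), Npc1 (20.0 and 16.2 TPM) and Lrp1 (18.7 and 9.95 TPM) followed. In KO, Npc1 and Lrp1 were within each other's spread and Scarb1 and Npc1 just apart, whereas in WT Scarb1 and Npc1 overlapped and Lrp1 lay below both. Abcg1 (9.18 TPM in KO, 6.38 TPM in WT) and Abca1 (7.75 and 4.70 TPM) were lower. At the bottom, Vldlr (1.42 TPM in KO, 0.58 TPM in WT) and Lrp8 (1.07 and 0.73 TPM) overlapped within each genotype. Of the ApoE receptors in the set, Lrp1 thus had the highest footprint level per length of whole transcript in both genotypes.

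The RNA-seq tables were too shallow for most of these genes. Only Apoe and Npc1 passed the filter there, and no other gene of the 9 had more than 5 counts in any RNA-seq library. Lrp1 had 0 and 4 counts in KO and 2 and 2 in WT, Npc2 had 3 and 5 in KO and 3 and 2 in WT, and Vldlr had 1 count, in a KO library. Scarb1 had 0 and 0 counts in KO and 4 and 1 in WT, Abcg1 0 and 1 in KO and 4 and 2 in WT, and Lrp8 0 and 0 in KO and 2.48 and 1.32 in WT. At these counts no difference was detectable. Abca1 had 0 counts in all 4, which allows up to 19.7 and 17.3 CPM in the KO libraries and 14.2 and 13.7 CPM in the WT libraries.

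Apoe ran the other way in RNA-seq. It had 3 and 8 counts in KO, or 19.7 and 46.1 CPM, against 18 and 24 counts in WT, or 85.2 and 109 CPM. Both KO libraries were below both WT libraries, as were those of 21.7% of the genes fitted. The fitted log2 fold change was -1.60 (SE 0.57). With KO replicate 2 left out it was -2.39, and with KO replicate 1 left out -1.11. Npc1 had 15 and 7 counts in KO and 25 and 16.8 in WT, or 98.6 and 40.4 CPM against 118 and 76.6 CPM, so that its genotypes overlapped (log2 fold change -0.61, SE 0.54). Neither gene was among the calls, which were 6.37% of 2087 genes.

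Other entries also differed between the genotypes in the RNA-seq tables, some lower in KO as Apoe was, and fibroblast markers higher. Pluripotency markers summed to 347 and 349 CPM in KO RNA-seq against 720 and 758 CPM in WT RNA-seq, and Rn45s, the ribosomal RNA precursor, took 0.638% and 1.02% of the KO counts against 7.99% and 3.33% of the WT counts. Fibroblast markers summed to 224 and 133 CPM in KO RNA-seq and 23.7 and 18.2 CPM in WT RNA-seq, with 8 of the 13 at 0 in each KO library and 10 and 11 in the WT libraries. Tagln alone gave 158 and 80.7 CPM in KO, on 24 and 14 counts, and 14.2 and 0 CPM in WT. With Rn45s left out of the totals, the Apoe difference between genotypes in mean log2(CPM + 0.5) was -1.73. The part of the marker and Rn45s differences in the RNA-seq value of Apoe was not tested beyond this.

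**Figure D3:**
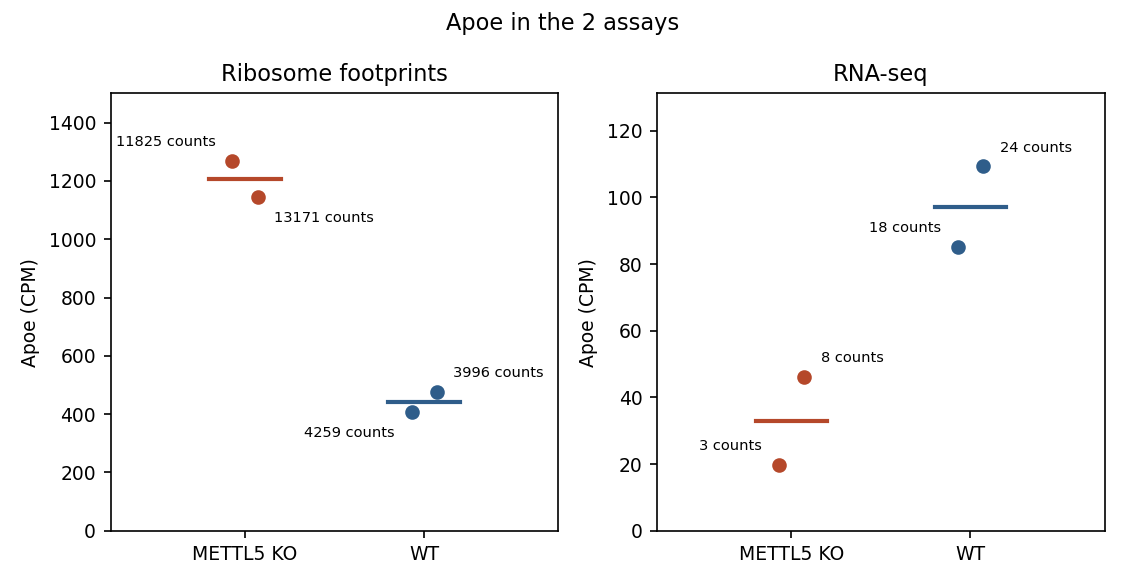
Apoe CPM in footprints (left) and RNA-seq (right), each on its own axis from 0; points are the 2 METTL5 KO and 2 WT libraries with their counts, and bars are group means. KO lies above WT in footprints (1207 and 441 CPM) and below it in RNA-seq (32.9 and 97.2 CPM), where libraries hold 3 to 24 Apoe counts.

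Translational efficiency, footprints relative to RNA-seq counts of the same gene, could be fitted for the same 2 genes. The KO over WT log2 difference was 3.11 for Apoe (SE 0.48) and 0.97 for Npc1 (SE 0.51). The Apoe value joins a footprint increase of 1.46 to an RNA-seq decrease of 1.60 that rests on the few counts above. Of the 2, Apoe was among the calls, which were 9.26% of 1458 genes, and nothing is read from this since the contrast chose the gene. Levels in the 2 assays were far apart for some other genes. Lpl had mean CPM of 813 in KO and 1731 in WT RNA-seq, against 15.0 and 22.3 in footprints. Pou5f1 had 21.4 in KO and 81.2 in WT RNA-seq, against 824 and 674 in footprints. What such differences mean for the Apoe value was not tested.

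Around these 9 genes, 143 other genes were followed in 8 lists, 7 of lipoprotein and sterol handling and 1 of the neighbours of Apoe, and 115 of them passed the footprint filter. The edgeR quasi-likelihood test with Benjamini-Hochberg adjustment over all 12315 genes called 5 of the 115, 3 higher and 2 lower in KO, or 4.35% against 2.44% of all genes. DESeq2 called 8. With the replicate block edgeR called 39 of the 115, 25 higher and 14 lower, or 33.9% against 24% of all genes. Over all 12315 genes the block called 1566 higher and 1394 lower, and block counts of single lists below stand beside these. Arl4c, a small GTPase gene and LXR target, rose to 14.4 and 16.0 CPM in KO, against 3.23 and 1.79 CPM in WT (log2 fold change 2.58, SE 0.31, adjusted p = 0.00907). Soat1, which esterifies cholesterol for storage in droplets, rose to 115 and 144 CPM in KO, against 50.2 and 65.4 CPM in WT (1.18, SE 0.20, adjusted p = 0.0244). Cav1, the coat protein of caveolae, rose on few counts, 45 and 51 in KO and 13 and 3 in WT (2.47, SE 0.48, adjusted p = 0.0354). Cav1 passed the filter on low counts through its KO libraries, so nothing is read from its call. With WT replicate 1 left out its value was 3.67, and with WT replicate 2 left out 1.89. All 5 genes kept the call under every alternative in which they were tested, and Cav1 was not tested at a minimum mean of 50 counts.

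The decreases were both in genes of endocytic partners of the receptors. Cubn, encoding the multiligand receptor cubilin that works with megalin, fell to 18.8 and 12.9 CPM in KO, against 65.4 and 116 CPM in WT (log2 fold change -2.51, SE 0.30, adjusted p = 0.00907). Dab2, a clathrin adaptor that binds the tails of lipoprotein receptors, fell to 9.44 and 11.2 CPM in KO, against 31.0 and 39.4 CPM in WT (-1.74, SE 0.22, adjusted p = 0.00907). Both also belong to the list of extraembryonic endoderm markers. They were 2 of 13 tested receptor partners, whose median was 0.07. Of the 13, 7 lay above 0 and 0 were called higher without the block. The block called 2 of the 13 higher, Gulp1 and Reln, and 3 lower, Cubn, Dab2 and Amn. Without it Gulp1 had a log2 fold change of 1.385 (edgeR adjusted p = 0.097), Reln 1.133 (0.122) and Amn -0.913 (0.102).

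None of the other receptors passed the test without a block in edgeR or DESeq2. Among them 5 unadjusted edgeR p lay below 0.05, as did those of 2387 of all 12315 genes. Counts of unadjusted p in the lists below stand beside that share. Under the block 7 were called higher and 1 lower. Of 12 tested genes among 18 other lipoprotein and scavenger receptors, 10 had fold changes above 0, where 50.8% of all genes did, with a median of 0.42. Nearest to the threshold were Lrp4 (log2 fold change 0.74, SE 0.20, edgeR adjusted p = 0.0936, and 0.000111 with the block), an agrin receptor related to Lrp1, and Scarb2 (0.46, SE 0.14, adjusted p = 0.13, and 0.000527 with the block), a lysosomal membrane relative of Scarb1.

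Few of the other apolipoprotein genes were measurable. Of 22 genes for apolipoproteins and particle enzymes, 10 passed the filter and edgeR called 0, with a median of 0.01 and 5 unadjusted p below 0.05. DESeq2 called 2, Apoc1 and Apob, and edgeR with the replicate block called 3 higher and 2 lower. Apoc1 had 32.9 and 44.7 CPM in KO and 14.6 and 24.6 CPM in WT (log2 fold change 1.01, SE 0.28, edgeR adjusted p = 0.104, and 2.7e-10 with the block). Apob, the core protein of very low density lipoprotein, had 5.36 and 20.6 CPM in KO and 1.91 and 2.38 CPM in WT (2.65, SE 0.71, adjusted p = 0.127, and 5.65e-17 with the block), with KO replicate 2 far above the other libraries.

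Beside Arl4c, the list of other ABC transporters and LXR genes held 10 tested genes that did not pass, and a median of 0.07 over its 11, with 2 called higher under the block. Of these 11, 7 lay above 0. Nearest to the threshold after Arl4c was Abca7 (log2 fold change 0.82, SE 0.22, edgeR adjusted p = 0.0986, and 0.000364 with the block). Srebf1, Scd1, Lpcat3 and Abcg2 lay below 0, with log2 fold changes of -0.02, -0.19, -0.21 and -0.25 (edgeR adjusted p = 0.957, 0.641, 0.58 and 0.409). Among 22 tested endolysosomal genes edgeR and DESeq2 called 0, and 18 lay above 0 (median 0.23). An unadjusted edgeR p below 0.05 was found for 3, where 2387 of all 12315 genes had one. With the block 3 were called higher and 2 lower. By log2 fold change, Hexa, a subunit of lysosomal hexosaminidase, had 0.67 (SE 0.20, adjusted p = 0.114, and 4.37e-05 with the block) and Tfeb, the transcription factor of lysosomal genes, 0.63 (SE 0.19, adjusted p = 0.118, and 0.000343 with the block).

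All 27 genes of synthesis and its SREBP2 control passed the filter, and edgeR and DESeq2 called 0. Of the 27, 11 lay above 0, with a median log2 fold change of -0.03. An unadjusted edgeR p below 0.05 was found for 5, where 2387 of all 12315 genes had one. Under the block 2 were called higher and 6 lower. Mvd and Idi1, enzymes that follow each other in the making of isoprenoid units, came nearest to the threshold, at -0.72 (SE 0.20, edgeR adjusted p = 0.104, and 5.65e-06 with the block) and -0.52 (SE 0.16, adjusted p = 0.126, and 0.000287 with the block). Of 10 tested genes of cholesterol esters and oxysterols, Soat1 and Cav1 were the 2 called, 3 were called higher under the block, and the median was 0.22.

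**Figure D4:**
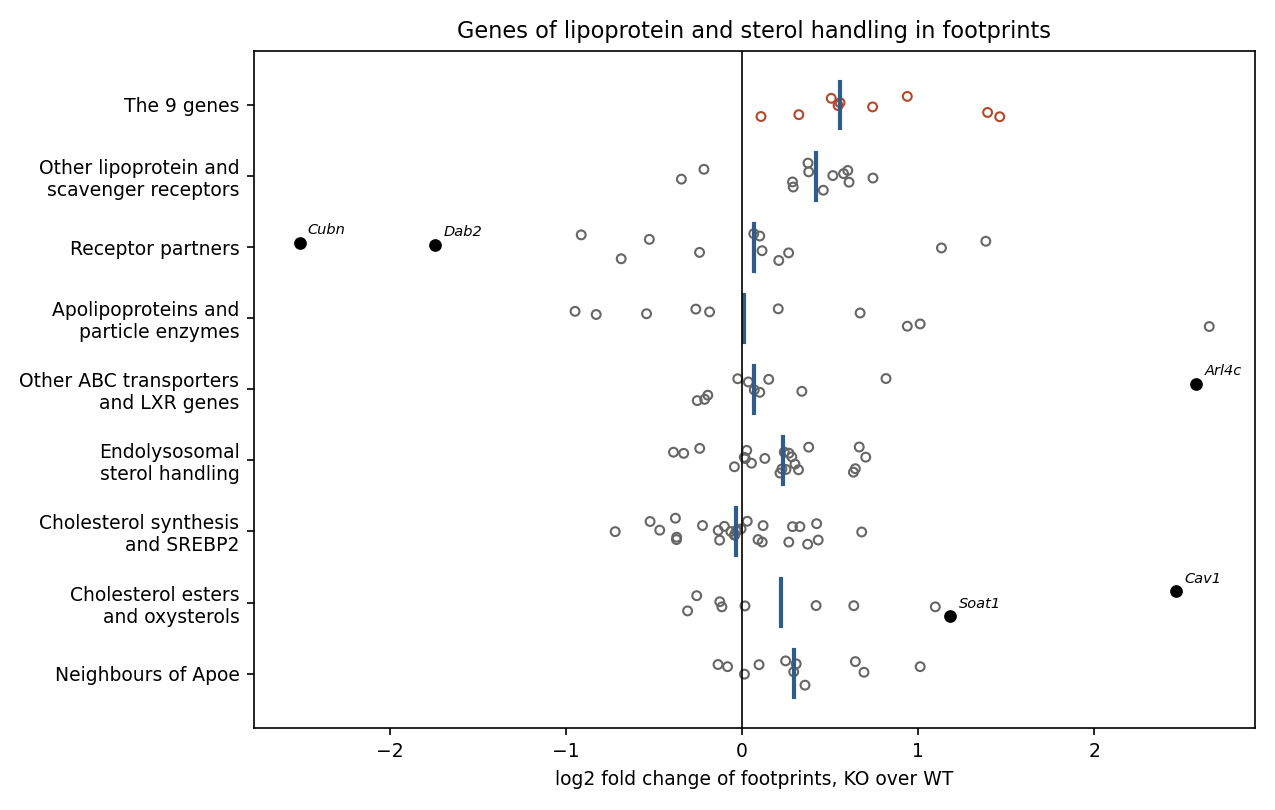
Log2 fold change of footprints (KO over WT, x axis) of the 9 genes (top row, no test shown) and of the tested genes of 8 lists; each point is a gene, blue bars are medians, and filled black points are genes past an adjusted p of 0.05 without a block. The 5 filled points are Arl4c, Soat1, Cav1, Cubn and Dab2, and the cholesterol synthesis genes straddle 0.

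Apoe lies in a run of genes on the minus strand of chromosome 7. Its nearest neighbours are Tomm40, 2.12 kb away, and Apoc1, 3.45 kb away. Of 11 neighbours tested within 133.03 kb, edgeR called 0 and DESeq2 2, Bcam and Apoc1, with 3 unadjusted p below 0.05 and a median of 0.29. With the replicate block 4 were called, all higher, namely Apoc1, Bcam, Nectin2 and Tomm40. Tomm40, a pore of the mitochondrial outer membrane, had 138 and 125 CPM in KO footprints and 119 and 97.2 CPM in WT footprints (log2 fold change 0.29, SE 0.16, adjusted p = 0.357, and 0.0355 with the block). Bcam (0.69, adjusted p = 0.0559, and 3.11e-08 with the block) and Nectin2, listed as Pvrl2 (0.64, adjusted p = 0.0672, and 3.59e-07 with the block), both cell adhesion genes, came nearest to the threshold in edgeR. The others were Cblc (0.36), Relb (0.31), Clptm1 (0.25), Gemin7 (0.10), Bcl3 (0.01), Clasrp (-0.08) and Ppp1r37 (-0.14), by edgeR log2 fold change. Apoc2 and Apoc4, in the same cluster, did not pass the filter, with 7 and 2 footprint counts in KO and 9 and 0 in WT.

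The genes whose footprint profile over the 4 libraries was most like that of Apoe were found by Euclidean distance on centred log2(CPM + 0.5), among 9258 other genes that averaged 50 counts or more. Among the nearest were Ntn1, the guidance cue netrin 1 (distance 0.0601), Col7a1, the collagen of anchoring fibrils (0.135), D1Pas1, a DEAD-box helicase gene (0.174) and the tetraspanin gene Tspan5 (0.20). Ntn1 had 83.3 and 75.5 CPM in KO and 25.3 and 29.8 CPM in WT. D1Pas1 is a near copy of Ddx3x, and reads could be split between them. Since likeness to Apoe chose these genes, their changes are no further result.

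Of the 10 pluripotency markers in footprints, edgeR called 1 higher in KO, Tfcp2l1, where 1.83% of all genes were. Its log2 fold change was 0.76 (SE 0.16, adjusted p = 0.0491, and 0.0585 at a minimum mean of 50 counts). DESeq2 also called Zfp42, which was lower in KO (-0.58, SE 0.15, edgeR adjusted p = 0.0904). With the replicate block 2 of the 10 were called higher and 1 lower, where 1566 and 1394 of all 12315 genes were. Markers of other cell types differed between the genotypes too. Fibroblast markers, 13 genes, summed to 490 and 703 CPM in KO footprints and 209 and 111 CPM in WT footprints, with 1 to 2 of the 13 at 0 in each library. Of 10 tested, 3 rose by the edgeR test, Col3a1, Col5a1 and Tagln, where 1.83% of all genes did. Col3a1 had 135 footprint counts in KO and 9 in WT, and Postn, also tested, 87 and 14. Both passed the filter on low counts through their KO libraries, so nothing is read from calls of Col3a1 or Postn. Tagln (adjusted p = 0.0488) missed the threshold with RLE size factors (0.0504) and without KO replicate 2 (0.0897). Markers of extraembryonic endoderm, 17 genes, summed to 1190 and 1326 CPM in KO and 1959 and 1977 CPM in WT, with at most 1 at 0 in a library, and of 13 tested 3 fell, Cubn, Dab2 and Col4a1, where 0.617% of all genes did. With the replicate block 9 of the tested fibroblast markers were called higher and 1 lower, and 1 of the endoderm markers higher and 10 lower. Among those 10, Gata6 (26 footprint counts in KO, 72 in WT) and Sox17 (14 and 40) passed the filter on low counts through their WT libraries. Nothing is read from calls of Gata6 or Sox17. Neural and astroglial markers, 10 genes, summed to 108 and 85.4 CPM in KO and 55.7 and 56.2 CPM in WT with 2 or 3 at 0 in a library. By the edgeR test Slc1a3 and Sox11 were the 2 of 6 tested that rose, where 1.83% of all genes did. Slc1a3 (edgeR adjusted p = 0.0287) missed the threshold without KO replicate 1 (0.0791). Of the other 4, Sox1 and Nes had log2 fold changes of 0.90 and 0.68, and Aldh1l1 and Pax6 of -0.53 and -0.82. Under the block 3 of the 6 were called higher and 1 lower. The astrocyte marker Gfap had 3 and 3 counts in KO and 6 and 8 in WT.

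Macrophages, which are known for high Apoe, Abca1 and Abcg1, were checked with 13 markers. These summed to 18.6 and 29.3 CPM in KO and 12.4 and 16.8 CPM in WT, and 6 to 9 of the 13 were at 0 in each library. Cd68, a lysosomal membrane protein gene and the 1 marker tested, made up most of the sums, at 17.7 and 28.4 CPM in KO and 11.9 and 16.1 CPM in WT. The leukocyte gene Ptprc had 0 and 2 counts in KO and 0 and 0 in WT, and the macrophage receptor gene Csf1r 3 and 0 in KO and 0 and 1 in WT. The part of the fibroblast, endoderm and neural markers in the values of the 9 genes was not tested.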

How the data were processed

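The authors deposited 1 RSEM table per library, with expected counts, TPM and FPKM per gene symbol, per the file headers. RSEM, the build mm10 and Bowtie2 2.3.4.3 stand in the submitters' processing notes, without strand or alignment settings. Per the labels' protocols, footprints came from the monosome fraction. Expected counts deposited by the authors were rounded for the tests and divided by the library total for CPM. The deposited TPM served for levels across genes, and the deposited FPKM were not used.

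KO was set against WT separately in each assay with edgeR 4.0.16 (TMM, filterByExpr, robust quasi-likelihood fit, Benjamini-Hochberg adjustment, calls below 0.05). SE came from the F statistics. Translational efficiency was the assay by genotype interaction over all 8 libraries. Replicates, called biological in the series, were not paired in these fits. Deposited footprint names of the same replicate number share a tag across the genotypes (deviations correlated by 0.433). Replicates differed by more than sampling noise. The chi-square per degree of freedom was 21.3 in KO and 24.1 in WT footprints, and 2.96 in KO and 7.02 in WT RNA-seq.

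The 9 genes and all lists were chosen with earlier results of these data known. Named beside the 9 genes were called list genes (at most 4 per direction and list), otherwise the 2 with the smallest p, tested neighbours of Apoe and its 5 nearest profiles; some genes that this rule names are not reported here. Marker genes singled out among the marker lists were named after their values were seen. So were Apoc2, Apoc4, Lpl, Gulp1, Reln, Amn and the genes named beside Arl4c in the LXR list. Alternatives were DESeq2 1.42.0, RLE factors, no filter, a minimum mean of 50 counts, the replicate number as a block, leaving out each library, limma 3.58.1 on log2(TPM + 1), CPM without Rn45s and pseudocounts of 0.5 and 5. The fits without a block were tested on simulated counts of each assay. These were drawn at 1 fixed dispersion, without deviations shared by same-numbered libraries. The simulation therefore cannot say how the fits behave at the spread of these libraries. Gene positions came from GENCODE M21 and promoters from RefSeq, both GRCm38; 3 list symbols were matched through older names.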

Additional observations from a re-analysis of the deposited data

Results flagged for a closer look

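Apoe was marked because its KO over WT difference was not the same in the 2 assays. The interaction of assay and genotype in the edgeR fit over 8 libraries gave a log2 difference of 3.11 (SE 0.48), from 1.46 in footprints and -1.60 in RNA-seq. In footprints both KO libraries were above both WT libraries, and in RNA-seq both were below. The RNA-seq side rests on 3 and 8 counts in KO and 18 and 24 counts in WT. It is given as a description, since the genes were chosen with the contrast known.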

How the results depend on the processing

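Across 116 alternative values of the 9 footprint fold changes, 106 stayed within 1 SD of the replicates and 1 changed sign, that of Scarb1. Of the 10 beyond 1 SD, 7 came from leaving out a library, in Vldlr, Lrp1, Scarb1, Abca1 and Npc2. The other 3 were Lrp8, at 0.25 by limma on log2(TPM + 1) and 0.22 in mean log2(CPM + 5), and Abca1, at 0.62 by limma. Vldlr fell from 1.40 to 0.60 by limma and 0.62 in mean log2(CPM + 5). It counted as within 1 SD because its replicates lay far apart. Leaving out each library gave 1.36 to 1.57 for Apoe, 0.60 to 2.3 for Vldlr, 0.66 to 1.27 for Lrp1, 0.36 to 0.74 for Lrp8, -0.10 to 0.34 for Scarb1, 0.64 to 0.86 for Abca1, 0.40 to 0.69 for Abcg1, 0.21 to 0.45 for Npc1 and 0.42 to 0.59 for Npc2. It gave -2.39 to -1.11 for Apoe and -1.31 to -0.12 for Npc1 in RNA-seq.

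Called footprint genes numbered 301, and 1110 with no filter, 186 at a mean count of at least 50 and 189 (without KO replicate 2) to 761 (without WT replicate 1) with a library left out, 505 without WT replicate 2 among them. RNA-seq calls numbered 133, and 75 by DESeq2, 76 at that mean count and 73 (without KO replicate 1) to 242 (without WT replicate 1). Translational efficiency calls numbered 135, and 17 at that mean count and 18 (without KO footprint replicate 2) to 154 with a library left out, with 40, 69 and 83 without KO replicate 1, WT replicate 1 and WT replicate 2 in footprints and 57 and 75 without KO replicates 1 and 2 in RNA-seq. The 5 called list genes became 8 by DESeq2, 21 with no filter, and 6 to 11 with a library left out (8 without WT replicate 1, 11 without WT replicate 2). Of the 9 genes, 1 was called as reported, 2 by DESeq2 and 4 with no filter. Lrp8 in footprints, and Apoe and Npc1 in RNA-seq, had no value at a mean count of at least 50. The cause was not tested, beyond the fewer genes or samples that these settings hold.

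With the replicate number as a block, 2960 footprint genes, 39 list genes and 7 of the 9 genes were called. The titles do not say what a replicate number marks, but deposited footprint names of the same number share a tag. Deviations of same-numbered libraries correlated by 0.433 in footprints and 0.054 in RNA-seq, over 2 pairs. RNA-seq and translational efficiency calls stayed within 1.5 times.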
